A study of Homo sapiens with 24 samples.

Results

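Box H/ACA snoRNAs are small nucleolar RNAs, most of which guide the conversion of uridine to pseudouridine in ribosomal RNA. The set described here is every row of the deposited count table whose symbol starts with SNORA, which gave 182 of 28307 rows. All 182 gene identifiers were found in the RefSeq annotation (GRCh38.p14). Of the 182, 38 had no count in any of the 24 libraries, 144 had at least 1 count, and 43 had a count in every library.

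An H/ACA snoRNA folds into a pair of hairpins, with the H box in the hinge between them and the ACA box near the 3′ end. Each one works inside a particle with the pseudouridine synthase dyskerin (DKC1) and the small proteins NHP2, NOP10 and GAR1. Before GAR1 joins, the assembly factors SHQ1 and NAF1 hold the immature particle. RUVBL1 and RUVBL2 are ring-forming ATPases that act with RPAP3 and PIH1D1 as the R2TP co-chaperone, and R2TP is known to help release SHQ1 from dyskerin and to help assemble box C/D snoRNA particles. Most human H/ACA snoRNAs are cut from introns of other genes, so counts on them can also come from unspliced host RNA.

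The study used HCT116, a human colon carcinoma cell line, with GFP knocked in at RUVBL1 or at RPAP3. RNA was recovered from lysates on GFP-Trap beads, which bind the GFP fusion, or on uncoupled agarose beads, which give the background of the same line. The RUVBL1 line was treated with CB-6644 (0.5 µM, 16 h), an inhibitor of the RUVBL1/2 ATPase, plus puromycin (100 µg/mL for 30 min), a drug that ends translation early and frees the nascent chain, with CB-6644 alone, with puromycin alone, or left untreated. The RPAP3 line was treated with puromycin or left untreated, and each of the 12 groups had 2 libraries. All groups, the uncoupled beads included, carry the knock-in, and the labels do not say whether a line is 1 clone or whether the 2 libraries of a group came from separate cultures. The tests therefore reflect only how far these libraries differ among themselves, and that may be technical variation. In such bulk RNA, fewer cells of a type and less RNA per cell cannot be told apart.

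Depth ran between 9019665 and 33051512 counts for RUVBL1-line libraries and between 30844089 and 50394245 for those of RPAP3. The H/ACA snoRNAs held 85593 counts, 0.0134% of the total as a mean over libraries. Levels are given as CPM, the count scaled by library size and TMM factor, and have no correction for length. The HCT116 epithelial markers EPCAM, KRT8, KRT18, CDH1, CEACAM5 and VIL1 together stood at 1093 to 4174 CPM, with CEACAM5 and VIL1 at or near 0, and the 10 markers of blood, stroma, endothelium and liver at 14.1 to 51.2 CPM. Before the results, 2 libraries of the RUVBL1 line have to be named, since they stand apart from their replicates on the first principal component: GFP replicate 2 of the CB-6644 group (111, against 3.55 for replicate 1) and GFP replicate 1 of the CB-6644 plus puromycin group (72.0, against 10.9 for replicate 2). The same 2 libraries hold the highest H/ACA snoRNA levels, so each result on those groups is given for both replicates and for each replicate alone.

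Sequences were at hand for only a few of these RNAs, where an annotated miRNA hairpin overlaps the snoRNA. They are shown because they let the ACA box be seen at the 3′ end that defines the class. Of 5 overlapping hairpins, the 3 in which the ACA position could be read are shown, and those at SNORA81 (77 counts) and SNORA2C (66 counts) are not. The hairpins come from RefSeq (GRCh38.p14), and the capitals mark the bases that lie just before the last 3 bases of the annotated snoRNA, read on the hairpin's strand.
MIR3651, overlapping SNORA84, chr9:92292458-92292547, minus strand: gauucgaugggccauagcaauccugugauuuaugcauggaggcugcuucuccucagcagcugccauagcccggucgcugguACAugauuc
MIR664A, overlapping SNORA36B, chr1:220200538-220200619, minus strand: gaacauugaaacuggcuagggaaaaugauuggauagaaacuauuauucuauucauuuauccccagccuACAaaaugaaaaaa
MIR664B, within SNORA36A, chrX:154768596-154768656, plus strand: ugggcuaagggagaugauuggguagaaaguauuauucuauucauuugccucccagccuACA
The bases at this position read ACA in all 3. These 3 snoRNAs were rare in the data, with 5 counts on SNORA84, 2 on SNORA36B and 0 on SNORA36A over the 24 libraries. The miRNA rows themselves were at 0.

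The annotated members were 86 to 250 bases long, with a median of 134.0, and 151 lay inside the span of 1 other gene, 21 inside several and 10 inside none. The annotation used gives no strand for the members, so a host here is any gene whose span holds the member. A ribosomal protein gene held 18 members and a lncRNA gene known for hosting snoRNAs held 23. By name, 115 members belong to 40 families of numbered copies, and the count of a single copy is uncertain where reads fit several.

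A few members held most of the counts. U17 is a snoRNA that acts in the processing of the 18S rRNA precursor and not as a pseudouridine guide. The pair of its copies, SNORA73B and SNORA73A, held 28.7% of all H/ACA counts. Both lie inside SNHG3 and RCC1 on chromosome 1 (28508558 to 28508762 and 28507365 to 28507571). The 10 members of highest mean level held 58.0%. After U17 these were SNORA109 at 19.9 CPM, SNORA94 at 6.22, SNORA24 at 5.69, SNORA50C at 4.36, SNORA21 at 4.12, SNORA71A at 4.10, SNORA57 at 3.94 and SNORA49 at 3.16 CPM, as means over the 24 libraries. Only 34 members had a mean of 1 CPM or more and 64 of the 182 had under 10 counts in all. Per kilobase of the annotated RNA, SNORA109 came first at 155.8 CPM, then SNORA73B at 122.2 and SNORA73A at 114.5. After the filter on low counts, 79 members were tested for RUVBL1 and 63 for RPAP3, 59 of them in both, and 99 in neither.

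The summed H/ACA level differed little between bead types except on the GFP beads of cells given CB-6644. It stood at 534 and 84.5 CPM on GFP beads in replicates 1 and 2 of the CB-6644 plus puromycin group, against 128.5 and 169.2 CPM on uncoupled beads. After CB-6644 alone it was 60.3 and 954 CPM on GFP beads in replicates 1 and 2, against 125.0 and 99.5 CPM on uncoupled beads. In both treatments 1 GFP library lay far above both uncoupled libraries and the other below them, and the high library was replicate 1 in the first and replicate 2 in the second. Libraries are named as labelled, and whether any were exchanged between these groups was not tested.

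Without CB-6644 the bead types overlapped or lay close. The RUVBL1 line had 94.4 and 112.6 CPM on GFP beads after puromycin, against 106.5 and 122.3 CPM on uncoupled beads. Untreated, it had 127.3 and 183.3 CPM on GFP beads, against 166.9 and 247.2 CPM on uncoupled beads. The RPAP3 line had 68.6 and 73.0 CPM on GFP beads after puromycin, against 66.0 and 84.9 CPM on uncoupled beads, and untreated 97.5 and 111.3 CPM on GFP beads, against 80.2 and 117.0 CPM on uncoupled beads. The ranges overlapped in all 4 of these comparisons.

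Box C/D snoRNAs (SNORD rows, 357 in the table) and small Cajal body RNAs (SCARNA rows, 29) had a different pattern of summed levels in the same libraries. Their summed SNORD level was 6309 and 4642 CPM on GFP beads after CB-6644 plus puromycin, against 156.6 and 216.8 CPM on uncoupled beads, and 2730 and 7198 CPM after CB-6644 alone, against 139.8 and 132.4 CPM. SCARNA rows summed to 1182 and 828.3 CPM on GFP beads after both drugs, against 86.3 and 86.1 CPM on uncoupled beads, and to 1088 and 1255 CPM after CB-6644 alone, against 90.3 and 68.9 CPM. In the summed level of both classes, unlike that of the H/ACA snoRNAs, every GFP library of cells given CB-6644 lay above every uncoupled library. Row by row this was less uniform for SCARNA rows. In GFP replicate 1 after CB-6644 alone, 11 of 17 tested SCARNA rows were above both uncoupled libraries and 5 below both. The other GFP libraries of cells given CB-6644 had 13 to 17 above and 0 below.

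**Figure D1:**
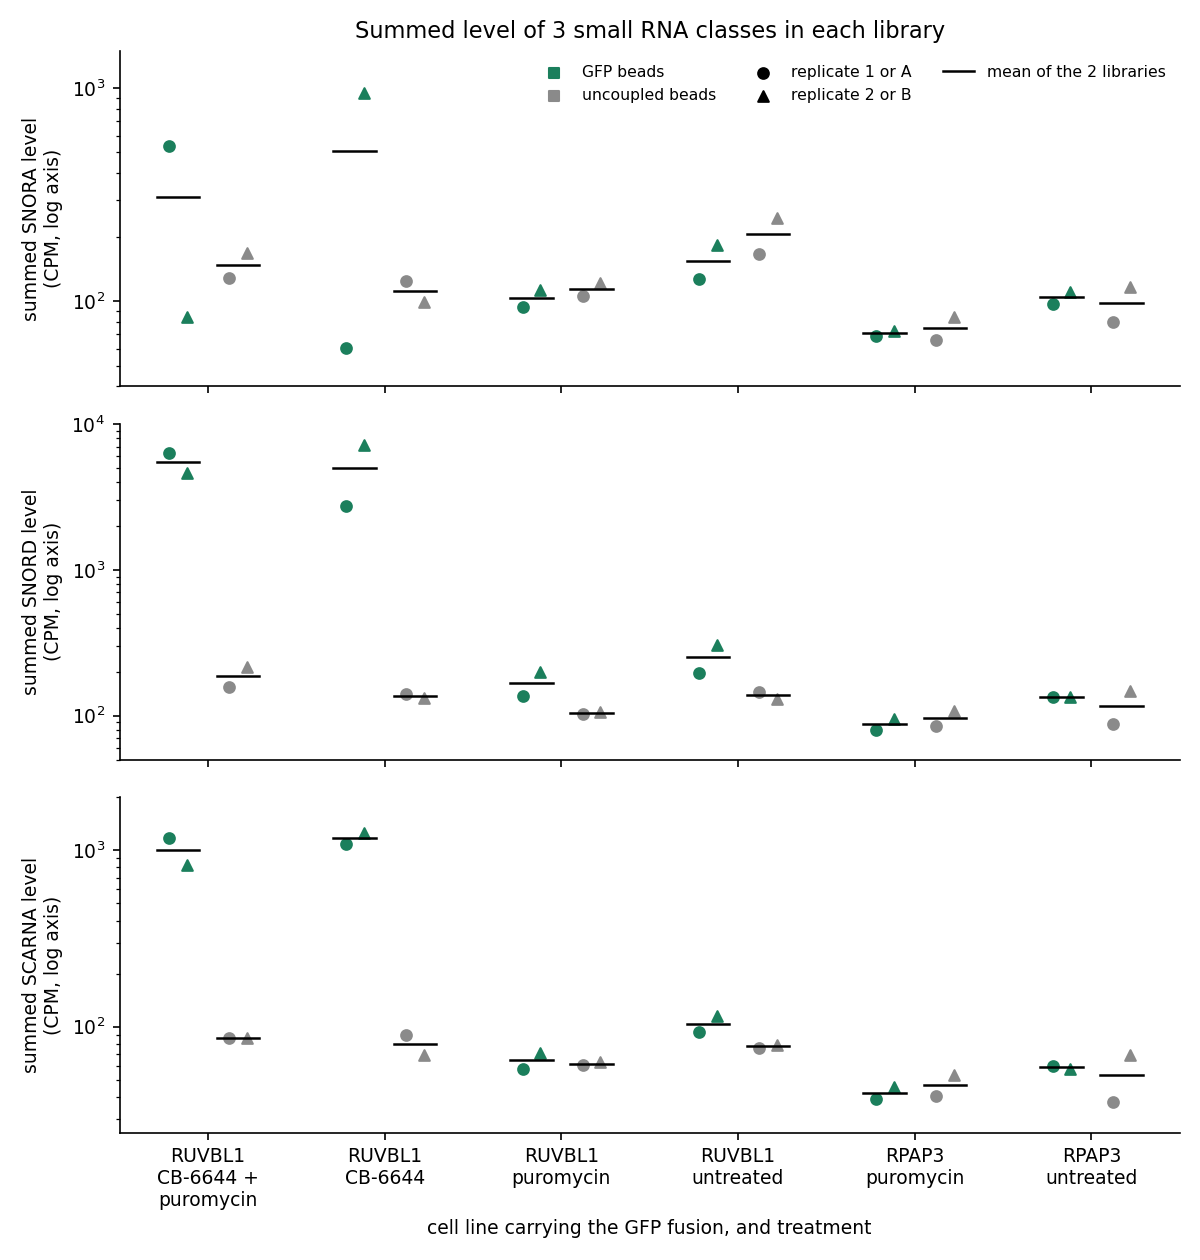
Summed level (CPM, log axis) of SNORA, SNORD and SCARNA rows in each of the 24 libraries, by line and treatment, with GFP beads in green, uncoupled beads in grey and a bar at the mean of the 2 libraries. The 4 GFP libraries of cells given CB-6644 are high for SNORD and SCARNA rows, while for SNORA rows 2 of them (534 and 954 CPM) are high and 2 (84.5 and 60.3 CPM) lie below the uncoupled beads.

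The U17 pair carried much of this split. In cells given CB-6644 plus puromycin, SNORA73B had 161 and 5.39 CPM on GFP beads in replicates 1 and 2, against 23.5 and 33.9 CPM on uncoupled beads. SNORA73A had 131 and 6.66 CPM on GFP beads, against 18.9 and 30.4 CPM on uncoupled beads. After CB-6644 alone, SNORA73B had 3.41 and 124.7 CPM on GFP beads in replicates 1 and 2, against 19.7 and 5.51 CPM on uncoupled beads, and SNORA73A had 5.01 and 183.6 CPM, against 17.7 and 6.85 CPM. Together the pair made 54.6% of the H/ACA counts in the high library after both drugs and 32.3% in the high library after CB-6644 alone, against 14.3% and 14.0% in the low libraries.

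In the other groups the U17 replicates lay closer together. SNORA73B had 10.6 and 11.7 CPM on GFP beads after puromycin, against 11.1 and 12.3 CPM on uncoupled beads, and untreated 17.0 and 17.5 CPM, against 21.0 and 13.6 CPM. In the RPAP3 line it had 9.72 and 10.5 CPM on GFP beads after puromycin, against 9.59 and 13.9 CPM on uncoupled beads, and untreated 16.5 and 17.4 CPM, against 13.1 and 19.3 CPM. The GFP libraries of SNORA73B fell inside or next to the range of the uncoupled ones in each case. SNORA73A in untreated RUVBL1-line cells had 8.85 and 12.4 CPM on GFP beads, against 18.4 and 13.0 CPM, with both GFP libraries below (log2 difference −0.60 ± 1.52 SE, adjusted p = 0.927).

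SNORA74A and SNORA74B, copies of U19, were lower in level. SNORA74A had 6.41 and 0.634 CPM on GFP beads after CB-6644 plus puromycin, against 2.37 and 2.89 CPM on uncoupled beads, and 0.702 and 17.1 CPM on GFP beads after CB-6644 alone, against 1.19 and 1.25 CPM. SNORA74B had 0 and 62 counts on GFP beads in replicates 1 and 2 after CB-6644 alone, against 2 and 3 counts on uncoupled beads, and 14 and 0 counts after both drugs, against 18 and 11. SNORA74A was thus split between replicates in both treatments, while SNORA74B after both drugs was close to the uncoupled beads in its higher library (0.701 CPM, against 0.618 and 0.538 CPM).

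Among the other leading members, SNORA71A, in the lncRNA gene SNHG17, had 17.2 and 0.687 CPM on GFP beads after both drugs, against 3.06 and 4.31 CPM on uncoupled beads, and 0.251 and 42.1 CPM on GFP beads after CB-6644 alone, against 1.93 and 2.02 CPM. SNORA49, in EP400, had 17.3 and 0.529 CPM on GFP beads after both drugs, against 2.95 and 4.75 CPM, and 0.501 and 28.0 CPM after CB-6644 alone, against 1.83 and 0.818 CPM. SNORA21, in RPL23, had 1.25 and 21.2 CPM on GFP beads after CB-6644 alone, against 3.12 and 2.37 CPM. These members were high in the same 2 libraries as U17 and below the uncoupled beads in the other 2 GFP libraries.

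SNORA94 and SNORA109 did not follow them. SNORA94, inside UQCRC1 on chromosome 3, had 6.82 and 4.25 CPM on GFP beads in replicates 1 and 2 after CB-6644 alone, against 5.14 and 7.495 CPM on uncoupled beads. It had 3.11 and 5.55 CPM on GFP beads after both drugs, against 6.59 and 3.08 CPM, so it was lower in the library where U17 was higher. SNORA109 had 9.83 and 138 CPM on GFP beads after CB-6644 alone, against 13.1 and 31.8 CPM, but 8.51 and 32.6 CPM after both drugs, against 12.4 and 13.1 CPM, with its higher value in the library where U17 was lower.

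**Figure D2:**
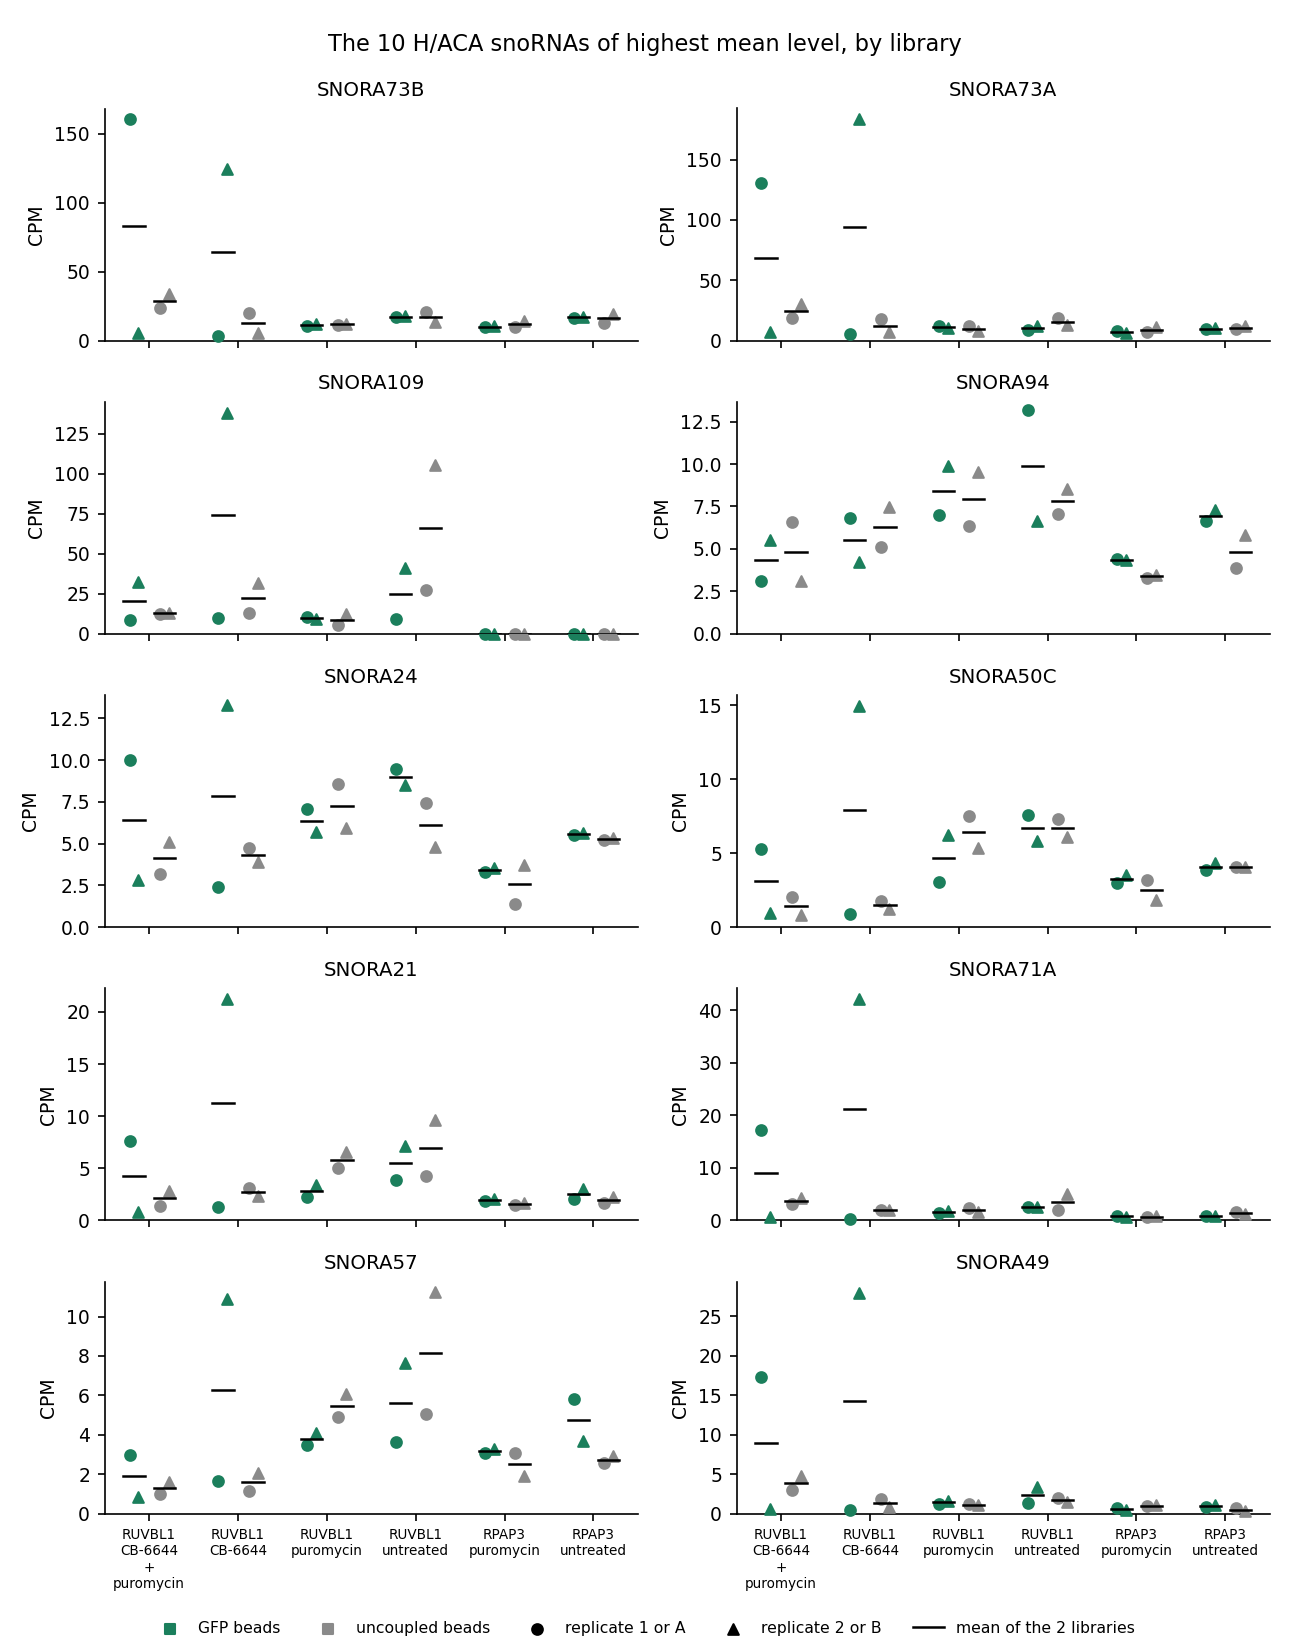
Level (CPM, linear axes that start at 0) of the 10 H/ACA snoRNAs of highest mean level in each library, with GFP beads left of uncoupled beads, a circle for replicate 1 or A, a triangle for replicate 2 or B and a bar at the mean. SNORA73B, SNORA73A, SNORA71A and SNORA49 are high in replicate 1 after CB-6644 plus puromycin and in replicate 2 after CB-6644 alone, SNORA94 is not, and SNORA109 is at 0 in the RPAP3 line.

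Among rows with at least 10 counts over the 2 GFP libraries, the median ratio between replicates was larger for members than for the other classes. The direction of each ratio was set after the high libraries were seen. Some members reached that minimum only through the high library, here and after both drugs, and the classes were not matched for level. Among the 73 members with at least 10 counts over the 2 GFP libraries after CB-6644 alone, 72 were higher in replicate 2, SNORA94 being the exception, and the median ratio of replicate 2 to replicate 1 was 16.3 (quartiles 6.42 and 30.6, with 0.05 CPM added to each value). With the 18 members at 0 in replicate 1 set at 3 counts instead, the median was 11.8. For SNORD rows the median ratio was 3.12, for SCARNA rows 1.48, for the 65 tested host genes 0.708 and for all genes 0.979. Ratios of at least 4 were found for 63 of the 73 members (86.3%), against 7.71% of all genes.

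After both drugs the ratio of replicate 1 to replicate 2 had a median of 6.57 over 70 members, of which 65 were higher in replicate 1, and 6.32 with the 10 members at 0 in replicate 2 set at 3 counts. For SNORD rows it was 0.967, for SCARNA rows 1.88, for the host genes 0.798 and for all genes 0.932. The ratio was at least 4 for 43 members (61.4%), against 4.98% of all genes. Of the 62 members with a ratio in both treatments, 60 were above 1 in both, and the log2 ratios correlated with Pearson's r = 0.578 and Spearman's rho = 0.615, as a description of 4 libraries that share these snoRNAs' abundance.

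Many of the large ratios belonged to members at or near 0 in the low library. After CB-6644 alone, SNORA62 had 158 counts in replicate 2 and 1 in replicate 1, and SNORA71A had 456 and 5, a ratio of 168. SNORA47 had 142 counts in replicate 2 and 0 in replicate 1, which puts it at least 87.2-fold higher in replicate 2 against a floor of 3 counts in that library. SNORA71C had 119 and 0 counts, at least 73.1-fold, and SNORA20 had 79 and 0 counts, at least 48.5-fold. SNORA73A and SNORA73B were both 36.6-fold higher in replicate 2. The high library also had the lowest depth of all, 9019665 counts, and a higher TMM factor (1.2, against 1.024 in replicate 1), and the part of either in these levels was not tested.

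**Figure D3:**
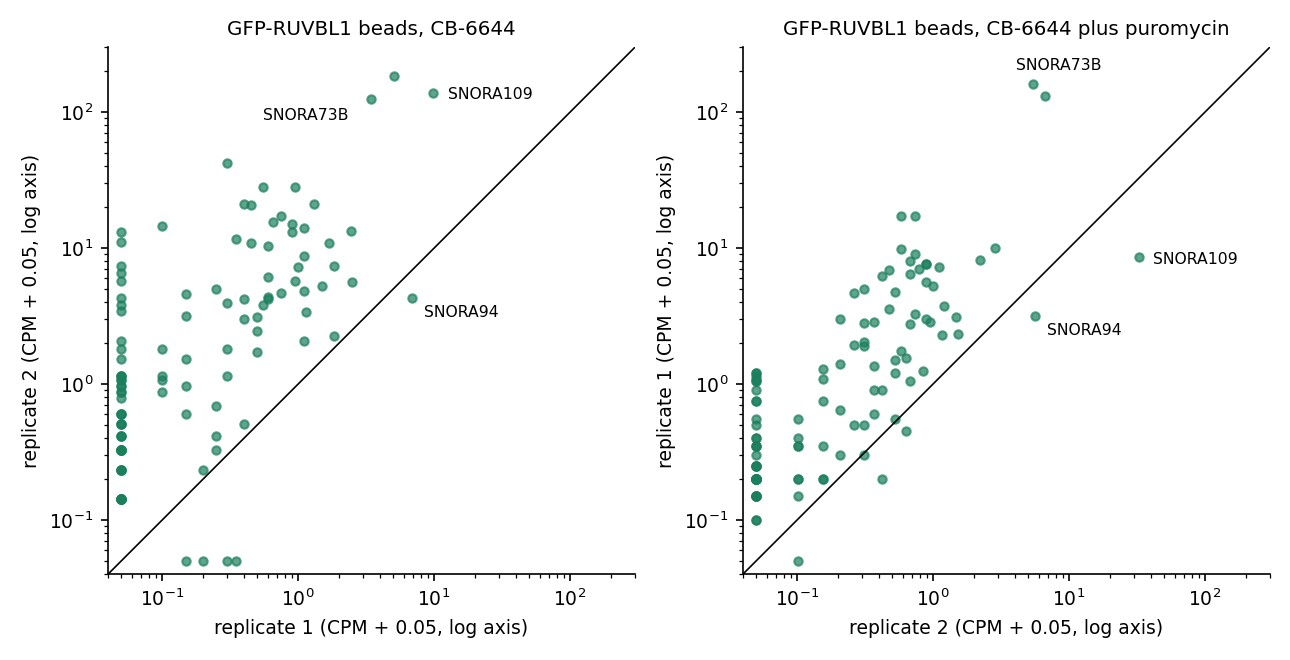
Level of each H/ACA snoRNA with a count in either library (CPM + 0.05, log axes) in the 2 GFP-RUVBL1 libraries of CB-6644 (left) and of CB-6644 plus puromycin (right), with the line of equality. Nearly all points lie above the line (72 of 73 and 65 of 70 members with at least 10 counts), SNORA94 lies below it in both panels and SNORA109 in the right one.

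Set against both uncoupled libraries, GFP replicate 1 of the group given both drugs was above them for 68 of 79 tested members and below for 3, and replicate 2 above for 10 and below for 50. After CB-6644 alone, replicate 1 was above both for 11 and below both for 35, and replicate 2 above for 73 and below for 1. A row needed enough counts in only 2 libraries to be tested, so members could enter through the 2 high GFP libraries. SNORA37, for example, had 20 and 16 counts in those and at most 6 in any other RUVBL1-line library. The tallies in those 2 libraries, and the later medians over both replicates, may be set in part by this. For all genes tested the shares above were 38.8% to 45.8% in these 4 libraries, and the shares below 34.4% to 42.1%. The 35 members below in replicate 1 after CB-6644 alone are 44.3%, not far from the 37.5% of all genes there. The 50 below in replicate 2 after both drugs are 63.3%, against 34.4% of all genes. SNORD rows were above in 122 to 133 of 134 in each of the 4. Some members had both GFP libraries above both uncoupled libraries in 1 treatment only. SNORA75, in the gene of nucleolin (NCL), and SNORA5C, in TBRG4, were the only members to do so in both treatments. That is 2 of 79 members (2.53%), against 12.8% of all genes, 118 of 134 SNORD rows and 11 of 17 SCARNA rows. For SNORA5C after CB-6644 this rests on 1 and 19 counts, against 1 and 1, so its low GFP library was above the beads only by library scaling.

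With edgeR's quasi-likelihood test over both replicates, no H/ACA snoRNA was called between GFP and uncoupled beads in any of the 6 comparisons, at an adjusted p under 0.05 over all genes tested. After CB-6644 plus puromycin, 0 of 79 members were called, against 0.557% of all 15976 genes, 1 had an unadjusted p under 0.05, and DESeq2 called 0 of the 51 to which it gave an adjusted p. Over the 14 comparisons DESeq2 left 550 of 1049 member tests without an adjusted p, so its counts cover only part of the members. The median log2 difference was 0.73, against 0.00 over all genes, and 0.71 with groups at 0 set at 3 counts per library. The smallest p values belonged to SNORA5C (11 and 6 counts on GFP beads, against 0 and 0), SNORA2C (8 and 11 counts, against 0 and 1) and SNORA25 (34 and 10 counts, against 10 and 2). Their adjusted p values were 0.469, 0.638 and 0.643. SNORA5C was at 0 in both uncoupled libraries.

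After CB-6644 alone, 0 of 79 members were called over both replicates, against 2.42% of all genes. At an unadjusted p under 0.05 there were 15, and DESeq2 called 3 (SNORA67, SNORA70 and SNORA22) among the 58 with an adjusted p there. The shares of all genes at that unadjusted p, or called by DESeq2, are not given in any comparison. Such counts therefore do not set the members apart from other genes. The median log2 difference was 2.14, against 0.02 over all genes, and 2.1 with groups at 0 set at 3 counts. In the same test 75 of 134 SNORD rows and 10 of 17 SCARNA rows were called higher. SNORA67 came closest, with 0.552 and 10.4 CPM on GFP beads, against 1.01 and 0.259 CPM on uncoupled beads (log2 difference 3.02 ± 0.95 SE, adjusted p = 0.0879). SNORA73A had a log2 difference of 2.88 ± 1.57 (95% interval −0.20 to 5.96, adjusted p = 0.319) and SNORA73B of 2.28 ± 1.62 (−0.89 to 5.45, adjusted p = 0.451), so the interval allows both no difference and a large one.

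Each GFP replicate was then tested alone against the 2 uncoupled libraries, with the lone library assumed to vary like the other groups. The filter on low counts then kept any row with enough counts in 1 library. A member could thus enter only by being high in the lone library, and the members tested differ between replicates. The calls and medians may therefore be set in part by the filter, here and in every fit with a lone library. Replicate 2 after CB-6644 alone had 21 of 93 members called higher and none lower in edgeR, against 20.6% of all genes called, 9.04% higher and 11.5% lower, and the median log2 difference was 3.12, or 3.03 with groups at 0 set at 3 counts. In replicate 1, 0 of 84 members were called in edgeR, against 1.01% of all genes, with 4 at an unadjusted p under 0.05, and the median was −0.93, or −0.23 with groups at 0 set at 3 counts. SNORD rows were called in both, 93 of 148 in replicate 2 and 50 of 141 in replicate 1, with medians of 5.51 and 3.90.

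The 10 members with the smallest p in replicate 2 alone were SNORA67, SNORA47, SNORA57, SNORA63, SNORA50C, SNORA8, SNORA22, SNORA70, SNORA20 and SNORA16A. SNORA67 was higher by 3.96 ± 0.70 (log2, SE, adjusted p = 0.000139). SNORA63, in EIF4A2, had 0.401 and 20.9 CPM on GFP beads in replicates 1 and 2, against 1.10 and 0.172 CPM on uncoupled beads (4.97 ± 1.03 in replicate 2 alone, adjusted p = 0.00261). SNORA8 had 1.05 and 14.0 CPM, against 1.56 and 0.948 CPM (3.42 ± 0.81, adjusted p = 0.00304). SNORA50C had 0.852 and 15.0 CPM, against 1.74 and 1.25 CPM (3.26 ± 0.69, adjusted p = 0.00265), and SNORA57 had 1.65 and 10.9 CPM, against 1.15 and 2.07 CPM (2.69 ± 0.60, adjusted p = 0.0021). All of these rest on 1 GFP library, and in the other one the same members lay within or near the uncoupled beads.

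After both drugs, replicate 1 alone had 0 of 93 members called in edgeR, against 0.388% of all genes, with 5 at an unadjusted p under 0.05 and a median log2 difference of 1.51. Replicate 2 alone had 0 of 90 called, against 0.326% of all genes, with 0 at an unadjusted p under 0.05 and a median of −1.43. With groups at 0 set at 3 counts these medians were 1.45 and −0.71. DESeq2 was not run on lone libraries.

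**Figure D4:**
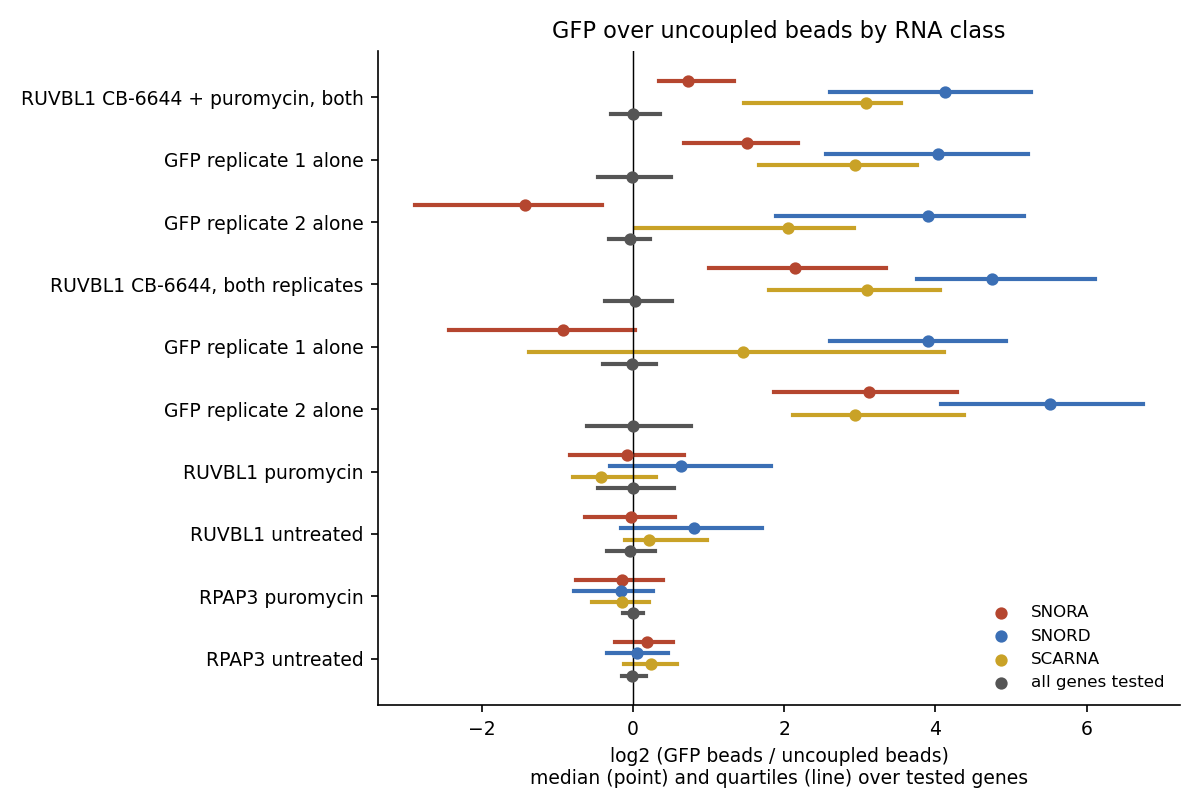
Log2 difference of GFP over uncoupled beads, as median (point) and quartiles (line) over the tested SNORA, SNORD and SCARNA rows and all genes, in each comparison and for each GFP replicate of the CB-6644 treatments alone. The SNORA median is 3.12 for replicate 2 and −0.93 for replicate 1 after CB-6644, and 1.51 and −1.43 for replicates 1 and 2 after CB-6644 plus puromycin, while the SNORD median stays between 3.90 and 5.51 in these 4. The rows that pass the filter differ between the lone replicates.

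In the change of enrichment with CB-6644 over untreated cells, 0 of 79 members were called in edgeR, against 0.188% of all genes, with 6 at an unadjusted p under 0.05 and 0 in DESeq2 among the 79 with an adjusted p there. The median change was 2.27, or 2.22 with groups at 0 set at 3 counts. SNORA57 changed by 2.43 ± 1.03 (log2, SE, adjusted p = 0.388), SNORA25 by 4.33 ± 1.90 (adjusted p = 0.389) and SNORA22C had the smallest p, with 0 and 46 counts on GFP beads in replicates 1 and 2 after CB-6644 (adjusted p = 0.269). With replicate 2 as the only GFP library of CB-6644, 7 of 93 members were called higher (SNORA67, SNORA57, SNORA22C, SNORA63, SNORA50C, SNORA47 and SNORA71D), against 8.72% of all genes called in either direction and 3.27% called higher. With replicate 1 alone 0 of 84 were called in edgeR, against 0.377% of all genes, with 3 at an unadjusted p under 0.05.

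Puromycin on top of CB-6644 changed the enrichment of 0 of 79 members in edgeR, against 0.0501% of all genes, with 0 at an unadjusted p under 0.05 and 0 in DESeq2 among the 79 with an adjusted p there. The median change was −1.21, or −1.22 with groups at 0 set at 3 counts. The 3 smallest p values belonged to SNORA3B, SNORA22C and SNORA78 (adjusted p = 1.00 each). The sign of the median depended on the libraries left in: it was −3.47 with replicate 2 as the only GFP library of both drugs and 1.90 with replicate 1 as the only GFP library of CB-6644, or −2.74 and 1.33 with groups at 0 set at 3 counts.

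In the RUVBL1 line without CB-6644, 0 of 79 members were called between GFP and uncoupled beads after puromycin in edgeR, against 13.8% of all genes, with 0 at an unadjusted p under 0.05 and 0 in DESeq2 among the 19 with an adjusted p there. The median log2 difference was −0.08, against 0.00 over all genes. SNORA24B had 0 and 2 counts on GFP beads, against counts of 25 and 9 on uncoupled beads (adjusted p = 0.189), SNORA40 1.64 and 2.01 CPM against 1.99 and 6.16 CPM (adjusted p = 0.213), and SNORA25 3 and 1 counts against 4 and 12 (adjusted p = 0.265). SNORA24B and SNORA21 were called lower when only the 4 libraries compared were fitted.

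In untreated cells of the RUVBL1 line, 0 of 79 were called in edgeR, against 0.933% of all genes, with 2 at an unadjusted p under 0.05 and 0 in DESeq2 among the 4 with an adjusted p there. The median was −0.03, against −0.04 over all genes and 0.80 over SNORD rows, of which 4 were called higher. SNORA58B had 0 and 0 counts on GFP beads, against counts of 5 and 18 on uncoupled beads, SNORA78 had 13 and 12, against 0 and 0, and SNORA66 had 0 and 0, against 12 and 1. These 3 members, with adjusted p of 0.266, 0.399 and 0.457, were each at 0 in both libraries of 1 bead type. The change with puromycin had 0 calls of 79 in edgeR, against 0.113% of all genes, with 0 at an unadjusted p under 0.05 and 0 in DESeq2 among the 4 with an adjusted p there, and a median of −0.20. Its smallest p values belonged to SNORA78, SNORA58B and SNORA22C (adjusted p = 0.562, 0.568 and 0.598).

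In the RPAP3 line the replicates lay closer together, with a biological coefficient of variation of 0.142, against 0.263 in the RUVBL1 line. After puromycin, 0 of 63 members were called between GFP and uncoupled beads in edgeR, against 0.46% of all genes, with 2 at an unadjusted p under 0.05 and no test by DESeq2, which gave none of the 63 an adjusted p, and a median of −0.15. SNORA72 had 0 and 0 counts on GFP beads, against 10 and 13, and SNORA44 0 and 0, against 3 and 16 (adjusted p = 0.729 and 0.974). SNORA62 had 2 and 8 counts, against 27 and 13 (adjusted p = 0.999). The change with puromycin had 0 calls of 63 in edgeR, against 0.25% of all genes, with 1 at an unadjusted p under 0.05 and 0 in DESeq2 among the 7 with an adjusted p there. SNORA44, SNORA10 and SNORA70 had its smallest p values, with an adjusted p of 1.00 each.

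Untreated, 0 of 63 members were called in edgeR, against 1.54% of all genes, with 2 at an unadjusted p under 0.05 and 0 in DESeq2 among the 7 with an adjusted p there, and a median of 0.18. SNORA57 had 5.83 and 3.68 CPM on GFP-RPAP3 beads, against 2.56 and 2.90 CPM on uncoupled beads (log2 difference 0.83 ± 0.32 SE, 95% interval 0.20 to 1.46, adjusted p = 0.417). SNORA94 had 6.67 and 7.27 CPM, against 3.85 and 5.83 CPM (0.55 ± 0.25, 0.05 to 1.05, adjusted p = 0.583), and SNORA69 had 1.22 and 0.948 CPM, against 0.512 and 0.332 CPM (1.40 ± 0.85, adjusted p = 0.783). In all 3 the GFP libraries were above the uncoupled ones, as for 11 of 63 members and 14.7% of all genes. For U17 the intervals were narrow: SNORA73B differed by 0.10 (−0.29 to 0.49) and SNORA73A by −0.09 (−0.54 to 0.36).

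TERC, the telomerase RNA, ends in an H/ACA domain bound by the same 4 proteins, and it is not a SNORA row. It had 143.3 and 153.0 CPM on GFP-RPAP3 beads after puromycin, against 64.8 and 59.7 CPM on uncoupled beads (log2 difference 1.28 ± 0.14 SE, adjusted p = 2.3e-05), and untreated 216.0 and 169.7 CPM, against 89.2 and 100.6 CPM (1.06 ± 0.14, adjusted p = 4.88e-05). Every GFP library was above both uncoupled ones, and no SNORA row passed the same tests. In the RUVBL1 line TERC had 46.4 and 125.6 CPM on GFP beads after CB-6644, against 90.3 and 78.8 CPM, with a log2 difference of −0.89 ± 0.32 in replicate 1 alone (adjusted p = 0.256) and 0.51 ± 0.30 in replicate 2 alone (adjusted p = 0.247). Its level too was lower than uncoupled beads in replicate 1 and higher in replicate 2.

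Between the lines, the enrichment in untreated cells (RUVBL1 minus RPAP3) differed for 0 of 86 members in edgeR, against 0.407% of all genes, with 2 at an unadjusted p under 0.05 and 0 in DESeq2 among the 30 with an adjusted p there, and a median of −0.13. SNORA58B, SNORA78 and SNORA80A had the smallest p values, with adjusted p of 0.362, 0.525 and 0.576. Line and preparation cannot be told apart here.

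The members of greatest contrast between the lines were SNORA109 and SNORA104, which were singled out after their values were seen. SNORA109 (chromosome X, 55183480 to 55183607), inside the pseudogene LOC101060042, had 109 to 1494 counts in every RUVBL1-line library and 0 in all 8 RPAP3-line libraries, where 3 counts would be 0.0622 to 0.102 CPM. In untreated RUVBL1-line cells it had 9.01 and 40.8 CPM on GFP beads, against 27.1 and 105.3 CPM on uncoupled beads. SNORA104 (chromosome 19, 14622213 to 14622351), inside ADGRE3 and overlapping the pseudogene ITGB1P1, had 39 counts over the RUVBL1 libraries and 627 over those of RPAP3. Whether the reads on these 2 rows come from the snoRNAs, their surroundings or similar sequence elsewhere was not tested.

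Puromycin changed the background itself in the RPAP3 line, and this was the comparison in which H/ACA snoRNAs were called. On uncoupled beads 1 of 63 members was higher after puromycin and 3 were lower (edgeR), against 43% of all 15202 genes called, 23.5% higher and 19.4% lower, so the members' share of 4 in 63 was below that of all genes. The median over members was −0.43, against −0.06 over all genes. SNORA104 had 4.68 and 3.61 CPM after puromycin, against 0.723 and 0.373 CPM in untreated cells (log2 difference 3.05 ± 0.42 SE, adjusted p = 5.09e-06). On GFP beads it had 3.91 and 2.87 CPM after puromycin, against 0.836 and 0.804 CPM untreated, so it was high on both bead types.

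SNORA3A, in the ribosomal protein gene RPL27A, had 1.42 and 1.74 CPM on uncoupled beads after puromycin, against 3.13 and 3.78 CPM untreated (−1.04 ± 0.34, adjusted p = 0.0169). SNORA24, in SNHG8, had 1.40 and 3.74 CPM, against 5.21 and 5.35 CPM (−0.97 ± 0.33, adjusted p = 0.0226). SNORA71B, in SNHG17, had 5 and 4 counts, against 18 and 44 (−2.47 ± 0.93, adjusted p = 0.037). The call of SNORA104 held without each of the 4 libraries in turn, while SNORA3A, SNORA24 and SNORA71B all lost theirs without untreated replicate B or without puromycin replicate A. Without untreated replicate A, SNORA24 and SNORA71B lost theirs, and without puromycin replicate B, SNORA71B did. A pair of their hosts fell as well, SNHG8 by 0.50 and RPL27A by 0.42 on the log2 scale (adjusted p = 0.00558 and 0.0199). SNHG17, the host of SNORA71B, was not called (−0.36 ± 0.22, adjusted p = 0.21). Of the 49 tested hosts, 17 were called lower and 8 higher, and a link between host and member was not tested.

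**Figure D5:**
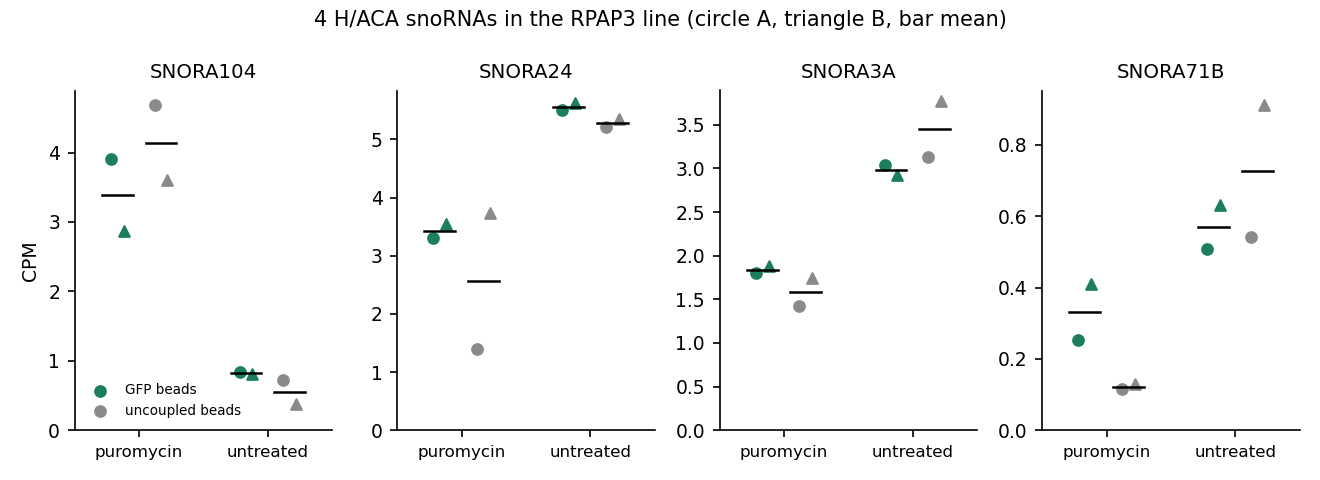
Level (CPM, axes from 0) of the 4 H/ACA snoRNAs called between puromycin and untreated uncoupled beads in the RPAP3 line, on GFP beads (green) and uncoupled beads (grey), with a bar at the mean of the 2 libraries. SNORA104 is higher after puromycin on both bead types and the other 3 are lower on both.

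In the RUVBL1 line the uncoupled beads gave no calls. With puromycin 0 of 79 members and 0% of all genes were called in edgeR, with 3 members at an unadjusted p under 0.05 and 0 in DESeq2 among the 58 with an adjusted p there, and a median of −0.55. SNORA55 had 2 and 17 counts after puromycin, against 63 and 37 untreated, SNORA60 0 and 0, against 13 and 6, and SNORA78 15 and 2, against 0 and 0 (adjusted p = 0.497, 0.527 and 0.539). With CB-6644 0 of 79 members and 0% of all genes were called, with 8 at an unadjusted p under 0.05 and 0 in DESeq2 among the 40 with an adjusted p there, and a median of −0.61. SNORA57 had 1.15 and 2.07 CPM on uncoupled beads after CB-6644, against 5.06 and 11.3 CPM untreated (−2.33 ± 0.75), SNORA65 0.229 and 0.560 CPM, against 2.05 and 3.10 CPM, and SNORA60 0 and 0 counts, against 13 and 6, with an adjusted p of 0.909 for all 3. The median of members was thus below 0 on uncoupled beads in each of the 3 comparisons made, puromycin in both lines and CB-6644 in the RUVBL1 line.

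The host transcript EP400 was called between bead types in comparisons where its snoRNA SNORA49 was not. EP400, a chromatin remodelling ATPase and the host of SNORA49, had 1468 and 913 CPM on GFP beads in replicates 1 and 2 after CB-6644, against 175.5 and 109.2 CPM on uncoupled beads, a log2 difference of 3.03 ± 0.38 (SE, adjusted p = 3.2e-05), while SNORA49 was high in replicate 2 only. In untreated cells EP400 had 10670 and 7608 CPM on GFP beads, against 187.1 and 80.0 CPM (6.07 ± 0.44, adjusted p = 1.04e-08). SNORA49 there had 1.37 and 3.38 CPM, against 1.92 and 1.501 CPM (0.43 ± 1.67, adjusted p = 0.958). In untreated cells of the RPAP3 line EP400 had 1621 and 2648 CPM on GFP beads, against 60.5 and 67.0 CPM (5.10 ± 0.26, adjusted p = 9.66e-08), and SNORA49 0.786 and 1.03 CPM, against 0.693 and 0.332 CPM (0.88 ± 0.68, adjusted p = 0.878). The host transcript was recovered many-fold over background in these comparisons and its intronic snoRNA was not called.

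SNHG3, the lncRNA that hosts U17, had 12.4 and 27.1 CPM on GFP beads in replicates 1 and 2 after CB-6644, against 16.2 and 17.8 CPM on uncoupled beads, and 12.7 and 12.4 CPM after both drugs, against 13.9 and 13.5 CPM. RCC1, the other gene around U17, had 97.2 and 79.9 CPM after CB-6644, against 78.3 and 77.3 CPM. Over the 68 members with 1 tested host in the RUVBL1 line, the log2 differences of member and host after CB-6644 had Pearson's r = 0.056 and Spearman's rho = −0.007, across members that share libraries and, in part, hosts. No host but EP400 was called after CB-6644, and none after both drugs.

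Few mRNAs of the H/ACA proteins were called between bead types. In untreated RUVBL1-line cells DKC1 had 316.5 and 182.4 CPM on GFP beads, against 142.9 and 93.7 CPM on uncoupled beads (log2 difference 1.05 ± 0.31 SE, 95% interval 0.44 to 1.67, adjusted p = 0.135). NAF1 there had 15.8 and 14.5 CPM, against 23.9 and 23.6 CPM (−0.67 ± 0.23, adjusted p = 0.21). Neither was called. Of the 4 core proteins, 0 were called after CB-6644 over both replicates in edgeR, but in replicate 2 alone NHP2 was lower by 0.99 ± 0.26 (log2 difference −0.99, adjusted p = 0.00531) and NOP10 by 0.87 ± 0.31 (−0.87, adjusted p = 0.0437). NHP2 had 166.7 and 91.6 CPM on GFP beads in replicates 1 and 2, against 179.4 and 170.0 CPM on uncoupled beads. DKC1 had 269.8 and 119.4 CPM, against 151.6 and 150.4 CPM, and was not called in either replicate alone. After puromycin in the RUVBL1 line, NOP10 was lower on GFP beads (−1.0 ± 0.26, adjusted p = 0.0135) and the 3 others were not called. The assembly factors SHQ1 and NAF1 were not called in any comparison of GFP with uncoupled beads, and NOPCHAP1 was not found under that symbol.

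On uncoupled beads of the RPAP3 line with puromycin, DKC1 was higher (1.42 ± 0.14, adjusted p = 4.19e-08), as were SHQ1 (1.15 ± 0.15, adjusted p = 2.84e-06) and NAF1 (0.92 ± 0.14, adjusted p = 2.46e-05), while NHP2 and NOP10 were lower (−0.81 ± 0.14 and −0.90 ± 0.14, adjusted p = 0.0001 and 2.31e-05). GAR1 differed by −0.03 ± 0.22 (adjusted p = 0.922). The mRNAs of 1 particle thus moved in both directions.

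RPAP3 mRNA, the R2TP subunit used as the other bait, was called higher on GFP-RUVBL1 beads in the replicate that was low for H/ACA snoRNAs as well as in the high one. It had 332 and 139 CPM in replicates 1 and 2 after CB-6644, against 41.8 and 38.5 CPM on uncoupled beads, with log2 differences of 3.02 ± 0.40 in replicate 1 alone (adjusted p = 0.00116) and 1.73 ± 0.40 in replicate 2 alone (adjusted p = 0.00787). COL1A1, a stromal collagen gene, had 7.17 and 34.6 CPM, against 5.50 and 5.51 CPM, and was called in replicate 2 alone (2.59 ± 0.37, adjusted p = 9.9e-06), so this marker of another cell type was high in the library that was high for H/ACA snoRNAs. After both drugs it had 19.3 and 8.03 CPM on GFP beads, against 7.49 and 7.64 CPM. The full list of such markers summed to 51.2 CPM in that library, against 26.4 CPM in replicate 1 and 27.5 and 26.9 CPM on uncoupled beads, with HBB, HBA1, PTPRC and COL1A2, the partner collagen of COL1A1, at 0 counts in that library. The other stromal marker, VIM, was not high there, with 16.4 and 12.4 CPM on GFP beads in replicates 1 and 2 after CB-6644, against 20.7 and 18.7 CPM on uncoupled beads. After both drugs VIM had 10.4 and 16.2 CPM on GFP beads, against 21.1 and 18.7 CPM. The part of COL1A1 or its source in the snoRNA levels was not tested.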

How the data were processed

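RNA from GFP-Trap or uncoupled bead precipitates was purified with RNeasy columns and made into libraries with a SMART-seq Stranded kit, per the labels' protocols. The authors deposited raw counts per gene. The submitters' processing notes name TopHat2 2.1.1, featureCounts 2.0.3 and build hg38, without the annotation release or strand setting. How well the columns and aligner keep RNAs this short was not tested.

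The 28307 rows were tested with edgeR 4.0.16 (filterByExpr, TMM, quasi-likelihood, R 4.3.3) in fits of all libraries of a line, or all 24 for the comparison of lines, with Benjamini-Hochberg adjustment over all genes and calls at an adjusted p under 0.05. The fits were tested on simulated data. Adjusted p values in the text are from edgeR unless DESeq2 is named. SE is the log2 difference over the square root of F, and 95% intervals are 1.96 SE. These intervals include the spread between libraries, while the floors of 3 counts cover counting error only.

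Alternatives were upper-quartile and total-count scaling, no filter, DESeq2 1.42.0, a replicate block, only the groups compared, and each library left out. Leaving out both high libraries, and SNORA109, were chosen after seeing the data. Named members are the 10 of highest mean CPM, U17 and U19, every called member or the 10 of smallest p, and the 3 of smallest p where none was called. Members and lists were chosen with earlier results of these data known. Hosts were to be taken on the same strand, but were taken on either, since the table used gives no strand.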

Additional observations from a re-analysis of the deposited data

How the results depend on the processing

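Of 168 alternatives for the counts of called members, 158 concern a reported count of 0, which stayed at 0 in 150 and says little of stability, and was above 0 in 8. No result changed sign while called. For CB-6644 enrichment, 8 members were called with no filter on low counts and 3 by DESeq2, and leaving out each library in turn gave 0 to 21, the highest without GFP replicate 1. Its change over untreated cells gave 2 with no filter and 0 to 7 with each library left out. CB-6644 on uncoupled beads gave 1 with no filter, 0 without any single library, and 1 (SNORA57) without both high GFP libraries. Puromycin enrichment in the RUVBL1 line gave 2 when only the groups compared were fitted. Puromycin on uncoupled RPAP3-line beads gave 8 (1 higher, 7 lower) with upper-quartile scaling and 1 to 3 with each library left out. The shares of all genes called under these settings are not given here, so the counts cannot be read as particular to the members. The cause of these shifts was not tested. Total-count scaling moved the median of all genes by 0.241 for CB-6644 enrichment. Upper-quartile scaling moved it by −0.174 for puromycin on uncoupled RPAP3-line beads.

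Most same-numbered libraries did not deviate together, with correlations of −0.412 to 0.27 in the RUVBL1 line and −0.117 to 0.159 for RPAP3. The −0.412 belongs to the GFP groups of CB-6644 and of CB-6644 plus puromycin, whose high H/ACA libraries carry opposite replicate numbers. The 0.27 belongs to the GFP groups of untreated and CB-6644 cells. With the replicate block, 0 members were called in 12 comparisons and 4 for puromycin on uncoupled RPAP3-line beads, and all-gene calls for CB-6644 enrichment were 533, against 387 without it. The comparison of lines has no such fit. With 64 members under 10 counts in all, differences in those were not detectable at this depth.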
